A study of Mus musculus with 2 samples.

Results

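The Dlk1-Dio3 imprinted miRNA cluster was described in mouse heart through 59 miRNA hairpin genes, out of 2202 miRNA genes in the deposited tables. Members were chosen by annotation alone: every gene of type miRNA in GENCODE M21 on the plus strand of mouse chromosome 12 that lies wholly inside a 300 kb window of genome build mm10 that begins beyond Dlk1 and runs past the last hairpin of the array. No measured value enters this rule, although it was set with earlier results of these data known. The first member, Mir1906-1, starts at position 109544541 and the last, Mir3072, ends at 109747960, a span of 203 kb. A member here is an annotated hairpin, so the mature products of its arms were counted together.

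The domain is a classic case of genomic imprinting, in which a gene is expressed from the copy inherited from a given parent. The copy inherited from the father expresses the protein-coding genes Dlk1, Rtl1 and Dio3, and the copy inherited from the mother expresses long noncoding RNAs, among them Meg3, Rian and Mirg, together with C/D snoRNAs and the hairpins described here. The miRNAs are known for high expression in embryo, placenta and brain, and several of them have been studied in muscle regeneration, cardiomyocyte proliferation and blood vessel growth. The counts are per gene, so the parental copies were not told apart.

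The samples were 2 libraries of heart tissue from 5xFAD/CAST mice, adult males 8 to 10 months old, and the labels number them as replicates 1 and 2 of a single group. 5xFAD is a transgenic mouse model of Alzheimer's disease whose transgenes the Thy1 promoter expresses mainly in neurons, and CAST is a wild-derived inbred strain. Both libraries share this background and no control genotype was analysed here. The labels carry the same donor entry for both libraries, with different biosample entries, and name no separate animals. P-values and spreads therefore measure only how these samples differ, which may be technical.

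The libraries held 3889280 and 5058613 counts on the sense strand of miRNA genes. The heart muscle genes Mir208a and Mir499, which lie in myosin heavy chain introns, stood at 2685 ± 1697 and 4310 ± 2232 counts per 1000000 sense counts (CPM; SD, n = 2). The other heart muscle hairpins on the marker list were lower, with Mir208b at 85.6 ± 41.1 CPM, Mir1a-2 at 40.1 ± 5.40, Mir133a-1 at 3.58 ± 0.029, Mir133a-2 at 2.67 ± 0.14 and Mir1a-1 at 1.65 ± 0.94. The Mir1a and Mir133a hairpins each share at least 20 bases with another hairpin. Because the brain is a known site of high expression of the cluster, a list of 11 neuronal hairpins was read beside it. Of these, 4 reached 10 counts in both libraries and 4 were at 0 in both, among them the hairpins Mir124a-1, Mir124a-2 and Mir124a-3 of the neuronal miRNA miR-124. The Mir124a hairpins share at least 20 bases with each other, and a read with several alignments was given to no gene. The neuronal list summed to 249 CPM in replicate 1 and 178 CPM in replicate 2. Most of that sum was Mir128-1, with 802 of 970 counts and 720 of 901, while the 3 Mir9 hairpins had 0 to 3 counts and Mir137 had 54 and 88. The Mir9 hairpins also share at least 20 bases with each other, so their low counts carry the same limit as those of the Mir124a hairpins. The list's part in the results below was not tested.

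The mature sequences of the 10 members of highest mean level are shown because they carried 86.1% and 84.9% of the cluster's counts, and miR-1193-5p because it shares a seed with one of them. The seed, bases 2 to 8, is the part of a miRNA that pairs first with a target and is given in capitals. Sequences are from RefSeq on GRCm38.p6, the same assembly as mm10, are written 5′ to 3′ and lie on the plus strand of chromosome 12. They are listed in genome order. RefSeq held 1 mature entry for Mir487b, so its other arm is not shown.
miR-337-5p: cGGCGUCAugcaggaguugauu
miR-337-3p: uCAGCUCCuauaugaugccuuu
miR-433-5p: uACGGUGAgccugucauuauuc
miR-433-3p: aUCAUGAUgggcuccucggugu
miR-127-5p: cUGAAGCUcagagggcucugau
miR-127-3p: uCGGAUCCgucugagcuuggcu
miR-379-5p: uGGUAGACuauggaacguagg
miR-379-3p: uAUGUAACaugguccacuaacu
miR-411-5p: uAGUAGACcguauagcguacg
miR-411-3p: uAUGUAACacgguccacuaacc
miR-1193-5p: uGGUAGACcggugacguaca
miR-487b-5p: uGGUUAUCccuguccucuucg
miR-382-5p: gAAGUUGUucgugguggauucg
miR-382-3p: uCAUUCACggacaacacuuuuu
miR-154-5p: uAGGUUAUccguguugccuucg
miR-154-3p: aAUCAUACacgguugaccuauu
miR-541-5p: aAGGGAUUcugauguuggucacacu
miR-541-3p: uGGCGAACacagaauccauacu
miR-409-5p: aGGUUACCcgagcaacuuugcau
miR-409-3p: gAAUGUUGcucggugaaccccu

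Mir379 and Mir411, neighbours in the genome, were the closest relatives among these. Their 3p products share the seed AUGUAAC, and the seeds of miR-379-5p and miR-411-5p differ at 1 base, G2A, counted from 1 at the 5′ end with the base of miR-379-5p first. The seed GGUAGAC of miR-379-5p is also that of miR-1193-5p. Across the cluster, 57 of 59 members matched RefSeq by symbol, with 106 mature entries. Among these entries, 9 seeds were shared by 2 or more members, and they involved 14 members. Outside Mir379 and Mir411, no listed seed was shared by members that both reached 10 counts in each library. Some members, such as Mir376c, Mir487b, Mir539 and Mir485, had 1 mature entry, so seeds of unlisted arms are not counted. Of the mature entries, 45 begin with U, 37 with A, 12 with C and 12 with G.

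The hairpins also repeat short words outside the seeds. The word GGUACUUG occurs on the sense strand of 6 of the 59 member hairpins (10.2%) and of 1 of the 2143 other hairpins (0.0467%), and CGCUUUAU in 6 members and 0 others. The words UCAGUAUC and UUCGCUUU were as frequent, each in 6 members, and occurred in 4 and 1 other hairpins. The words were picked as the most repeated ones of 8 bases, so their frequency in the members is a description. Each of these member hairpins lies between Mir379 and Mir3072. Mir411, which holds GGUACUUG and CGCUUUAU, is shown with its mature arms in capitals.
Mir411: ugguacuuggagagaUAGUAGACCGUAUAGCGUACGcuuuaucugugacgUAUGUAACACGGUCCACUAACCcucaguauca
Mir127, the highest member, holds none of these words.
Mir127: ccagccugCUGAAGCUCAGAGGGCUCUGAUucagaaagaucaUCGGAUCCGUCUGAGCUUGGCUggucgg

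The cluster was present in heart at a low level. Its 59 genes held 6092 sense counts in replicate 1, which is 0.157% (95% Clopper-Pearson interval 0.153 to 0.161), and 7207 in replicate 2, which is 0.142% (0.139 to 0.146), a mean of 0.150% ± 0.010 (SD, n = 2). The intervals cover counting error only, since no molecular identifiers are recorded in the sources used here. For scale, the miR-17-92 cluster, a non-imprinted polycistron of 6 hairpins, held 0.276% ± 0.060, and the 119 imprinted hairpins within Sfmbt2 held 0.0892% ± 0.011. Reads with several alignments are in none of these shares. Of 5 hairpins at other imprinted loci, Mir335 in Mest stood at 419 ± 63.0 CPM and Mir483 in Igf2 at 52.8 ± 21.3 CPM. Mir298 and Mir296, at the Gnas locus, stood at 11.5 ± 10.0 and 6.20 ± 1.86 CPM. Mir675, in H19, had 6 and 2 counts.

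A larger share of the cluster's genes was counted than of the other miRNA genes, although the median level of those detected was lower. Of the 59 members, 28 (47.5%) had at least 10 counts in both libraries, here called detected, against 297 of the 2143 other genes (13.9%). Another 19 were counted below that minimum, and 12 (20.3%) were at 0 in both libraries, against 1478 of the other 2143. The median level of detected members was 17.3 CPM, against 56.1 CPM for the other detected genes. Of the 119 hairpins within Sfmbt2, 6 were detected, and of the 6 of miR-17-92, 4. Reads with several alignments were given to no gene, and stretches shared among the Sfmbt2 hairpins are not given here. How far this lowers their number was not tested. These shares were not tested, since neighbouring hairpins are not independent.

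The members form separate blocks along the chromosome when neighbours with at most 10 kb between them are joined. A proximal block of 14 members runs from Mir770 to Mir136, a small block of 4 lies in introns of Rian from Mir341 to Mir370, and a distal block of 39 runs from Mir379 to Mir3072. Mir1906-1, in an exon of Meg3, and Mir882 stand alone, and both were at 0. The distal block held 49.2% of the cluster's counts in replicate 1 and 61.4% in replicate 2, a mean of 55.3% ± 8.56. The proximal block held 50.4% and 37.9%, a mean of 44.1% ± 8.86, and the Rian block 0.361% and 0.777%. In replicate 1 the counting intervals of the proximal block (49.1 to 51.7%) and the distal block (48.0 to 50.5%) overlapped. Counting error thus did not separate these blocks in replicate 1. In replicate 2 the distal block was the larger, with an interval of 60.2 to 62.5% against 36.7 to 39.0% for the proximal block.

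**Figure D1:**
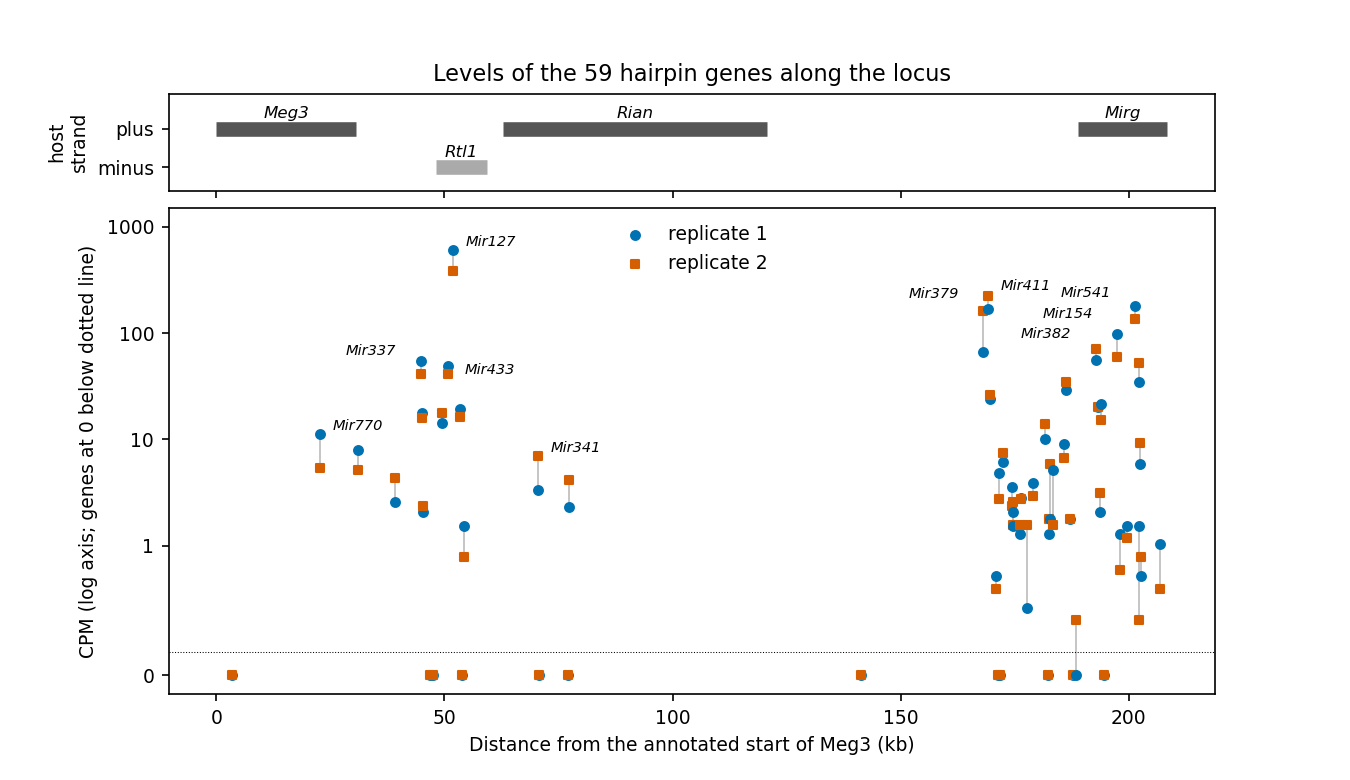
Level of each of the 59 hairpin genes in CPM on a log axis, against its distance in kb from the annotated start of Meg3; circles are replicate 1, squares replicate 2, and genes at 0 lie below the dotted line. Bars above give the host genes by strand. Mir127 stands above all others in both libraries, and the second group of high genes starts at Mir379 and Mir411.

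Mir127 was the highest member in both libraries. Mir127 (ENSMUSG00000070076.2; chromosome 12, 109592846 to 109592915) lies opposite the coding sequence of Rtl1, a retrotransposon-derived gene needed in placenta, and its product is fully complementary to Rtl1 mRNA. It had 2366 counts in replicate 1 and 1964 in replicate 2, or 608 and 388 CPM, a mean of 498 ± 156 CPM. This was 38.8% (37.6 to 40.1) and 27.3% (26.2 to 28.3) of the cluster's counts. It ranked 81 among all 2202 miRNA genes.

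The other hairpins opposite Rtl1 (chromosome 12, 109589193 to 109600330, minus strand) were far lower. Of the 6 such members, 4 were detected. Mir433, whose product has been studied in cardiac fibrosis, had 192 and 211 counts. Mir434 had 75 and 83, and Mir431, studied in muscle stem cells, had 55 and 90. Mir136 had 6 and 4, and Mir432 was at 0. Without Mir127, these hairpins held 5.38% of the cluster's counts in each library, with a ratio of replicate 2 to replicate 1 of 0.992 (exact 95% interval 0.854 to 1.15), so the libraries differed by less than counting error there.

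At lower coordinates than Rtl1, in the same block, Mir337 led with 214 and 210 counts, or 48.3 ± 9.55 CPM. Mir540 had 69 and 80 counts, and Mir770, in an exon of Meg3, had 44 and 27. Mir673 had 31 and 26, and Mir493 had 10 and 22, the lowest count that was still detected. Mir3070a and Mir3070b, which share a stretch of 43 bases with a whole mature arm in it, were at 0 in both libraries.

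In the Rian block, Mir341 alone was detected, with 13 and 35 counts. Mir370, studied for its effect on fatty acid oxidation, had 9 and 21 and so fell just outside the minimum. Mir1188 and Gm23912 were at 0. All 4 lie in introns of the long noncoding RNA Rian, which also hosts snoRNAs.

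The distal block opened with Mir379 and Mir411, which with Mir541 near its far end were its highest members by mean level. Mir379 (ENSMUSG00000065498.4; chromosome 12, 109709060 to 109709125) is the first hairpin of the block and has no annotated host gene on its strand. It had 260 counts in replicate 1 and 819 in replicate 2, or 66.9 and 162 CPM. The next hairpin, Mir411 (ENSMUSG00000065477.3; 109710175 to 109710256), had 659 and 1125 counts, or 169 and 222 CPM. Both were higher in replicate 2. The following Mir299a had 94 and 133 counts.

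Between Mir299a and the start of Mirg the detected members were mostly low. Mir487b, one of the cluster's miRNAs studied in vessel remodelling, was the exception with 113 and 174 counts. Mir376c had 39 and 71 counts and Mir381 had 35 and 34. Mir329, Mir323, Mir667, Mir494 and Mir543 lay between 11 and 38 counts in every library. Mir495 there and Mir410 within Mirg, whose products have been reported to promote cardiomyocyte proliferation, had 1 and 8 counts and 2 and 4 counts. They are below the detection minimum and are named for that reported role. A count of 0 would allow up to 3 counts, or 0.771 and 0.593 CPM, so these levels are close to the limit of the depth.

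Within Mirg (chromosome 12, 109729764 to 109749460), a long noncoding RNA that hosts 14 members, 7 were detected. Mir541 (ENSMUSG00000076052.1; 109742409 to 109742498), in an intron, had 708 and 690 counts, or 182 and 136 CPM. Mir154 had 379 and 303 counts, Mir382 219 and 360, and Mir409 134 and 265. Mir134, which restrains Limk1 translation in neuronal dendrites, had 79 and 103 counts, Mir485 had 83 and 77, and Mir369 had 23 and 47. The last hairpin, Mir3072, had 4 and 2 counts.

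The order of members below Mir127 was not settled by these libraries. By mean level it ran Mir411 (196 ± 37.4 CPM), Mir541 (159 ± 32.3), Mir379 (114 ± 67.2), Mir154 (78.7 ± 26.6) and Mir382 (63.7 ± 10.5). In replicate 1 Mir541 exceeded Mir411, and Mir154 exceeded Mir379. In replicate 2 Mir379 exceeded Mir541, and Mir382 exceeded Mir154. Mir337 (48.3 ± 9.55), Mir433 (45.5 ± 5.41) and Mir409 (43.4 ± 12.7) were closer to each other than their spread. A read of this assay is a whole mature miRNA, so CPM were not divided by length. Per base of hairpin, the first 6 members kept this order and Mir299a entered the first 10 in place of Mir433.

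Differences between the libraries were tested gene by gene on the counts, using an exact binomial test (two-sided) at the ratio of library sizes after TMM normalization in edgeR, with Benjamini-Hochberg adjustment over all 412 miRNA genes with a sum of at least 10 counts. The test covers counting error only and compares these libraries, not conditions. Of the 40 members tested, 11 passed at an adjusted p of 0.05, against a background of 45.4% of all tested genes. By direction, 6 were higher in replicate 2 (background 22.8%) and 5 in replicate 1 (22.6%). The members' share of 27.5% was read against their depth, since the median sum of counts was 65.5 for tested members and 195 for all tested genes. Among genes with sums from 10 to below 100, 4 of 23 members (17.4%) and 24 of 149 others (16.1%) passed. From 100 to below 1000 these were 3 of 13 (23.1%) and 46 of 101 (45.5%), and from 1000 up 4 of 4 and 106 of 122 (86.9%).

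**Figure D2:**
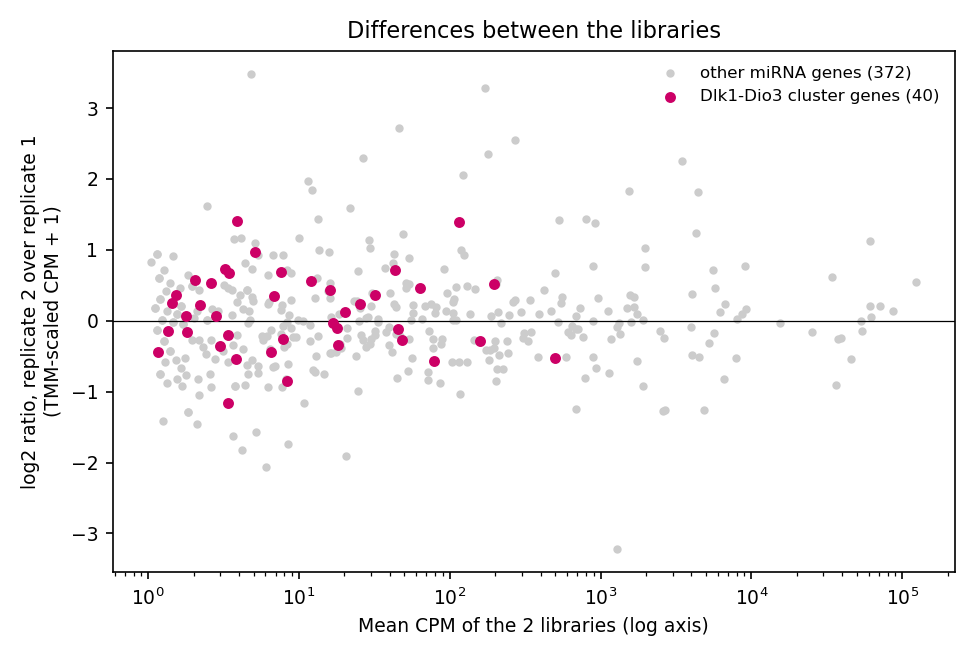
Log2 ratio of replicate 2 over replicate 1 (TMM-scaled CPM with 1 CPM added) against the mean CPM on a log axis, for the 412 tested miRNA genes, with the 40 members in colour. The members lie within the cloud of other genes on both sides of 0, from -1.16 (Mir300) to 1.40 (Mir376a), while other genes reach -3.22 and 3.47.

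Mir379 stood farthest apart among the abundant members. Its level was 2.64-fold higher in replicate 2 (exact 95% counting interval 2.29 to 3.05; adjusted p = 2.0e-47, exact binomial test). Mir411 beside it was 1.43-fold higher (1.30 to 1.58; adjusted p = 7.6e-13). Of the members within Mirg, Mir409 was 1.66-fold higher (1.34 to 2.06) and Mir382 1.38-fold higher (1.16 to 1.64) in replicate 2. Mir341 in the Rian block was 2.26-fold higher (1.17 to 4.65; adjusted p = 0.030), a call that scaling by total counts did not give (adjusted p = 0.056).

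Another 5 members were higher in replicate 1, some of them beside those above. Mir127 was 1.44-fold higher there (1.35 to 1.53; adjusted p = 8.1e-32, exact binomial test). Mir154 was 1.49-fold (1.28 to 1.74) and Mir541 1.22-fold higher (1.10 to 1.36), although both lie in introns of Mirg, between Mir382 and Mir409. Mir770 was 1.94-fold higher (1.18 to 3.26). The intervals of Mir382 and Mir409 do not overlap those of Mir154 and Mir541, so by counting error the 4 did not move by a common factor.

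**Figure D3:**
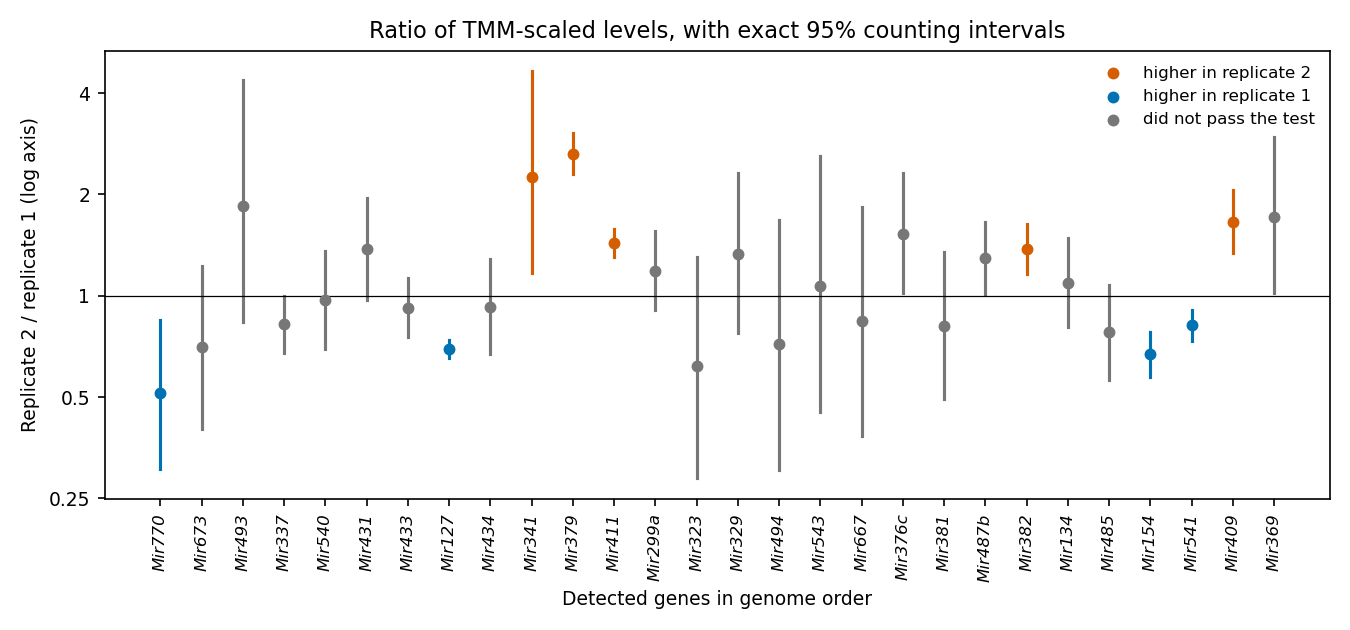
Ratio of the TMM-scaled level in replicate 2 to that in replicate 1 on a log axis, for the 28 detected members in genome order, with exact 95% counting intervals. Of the 28, 5 were higher in replicate 2 and 4 in replicate 1, and neighbours such as Mir154, Mir541 and Mir409 fall on different sides of 1. For all 412 tested genes, which include genes below the detection minimum, the shares were 22.8% and 22.6%.

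The remaining calls fell on sparse members. Mir376a, of a family known for RNA editing by ADAR enzymes, had 7 counts in replicate 1 and 30 in replicate 2, and Mir300 had 20 and 8. They are named because they passed the test, although neither reached 10 counts in both libraries. Of the 29 tested members that did not pass, Mir376c, Mir487b and Mir369 came closest, with adjusted p of 0.074, 0.079 and 0.083 (exact binomial test) and ratios of 1.53 (1.02 to 2.32), 1.29 (1.01 to 1.65) and 1.71 (1.02 to 2.96). Mir337 had a ratio of 0.823 (0.677 to 1.00; adjusted p = 0.092, exact binomial test), and scaling by total counts took it past the threshold (adjusted p = 0.0093). For Mir134, Mir540 and Mir433 the intervals of the ratio ran from 0.808 to 1.48, from 0.696 to 1.36 and from 0.754 to 1.13.

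With all members included and TMM scaling, the cluster's total differed between the libraries by less than counting error. Its summed counts gave a ratio of 0.992 for replicate 2 over replicate 1 (0.958 to 1.03). That sum rests on Mir127, which was higher in replicate 1: without it the ratio was 1.18 (1.13 to 1.23), higher in replicate 2. It also rests on the scaling. As a share of all sense counts, with no TMM factor, the cluster was higher in replicate 1. There it held 0.157% (0.153 to 0.161), against 0.142% (0.139 to 0.146) in replicate 2, and these counting intervals do not overlap. The median log2 ratio of tested members was 0.096 on the log2(CPM + 1) scale, against -0.0038 for all tested genes, and 22 of 40 members lay above 0. It was -0.0037 with total counts, a scaling that moved the median of all genes by -0.11. Within 1.5-fold of each other lay 77.5% of tested members and 68.4% of all tested genes.

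The ratios of the blocks were also taken without their most abundant members that differed between the libraries. These members were picked because they differed in the direction of their block, so leaving them out must bring the remainder nearer to 1, and the values are descriptions. Without Mir127, the proximal block's ratio of replicate 2 to replicate 1 was 0.911 (0.821 to 1.01), against 0.745 (0.708 to 0.785) with it. Without Mir379 and Mir411, the distal block's ratio was 0.998 (0.941 to 1.06), and its remaining 37 members held 34.2% and 34.4% of the cluster's counts. Without Mir127, the proximal block held 11.6% and 10.6%. Single members within these remainders still differed, as for Mir154 and Mir541 against Mir382 and Mir409 in Mirg.

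**Figure D4:**
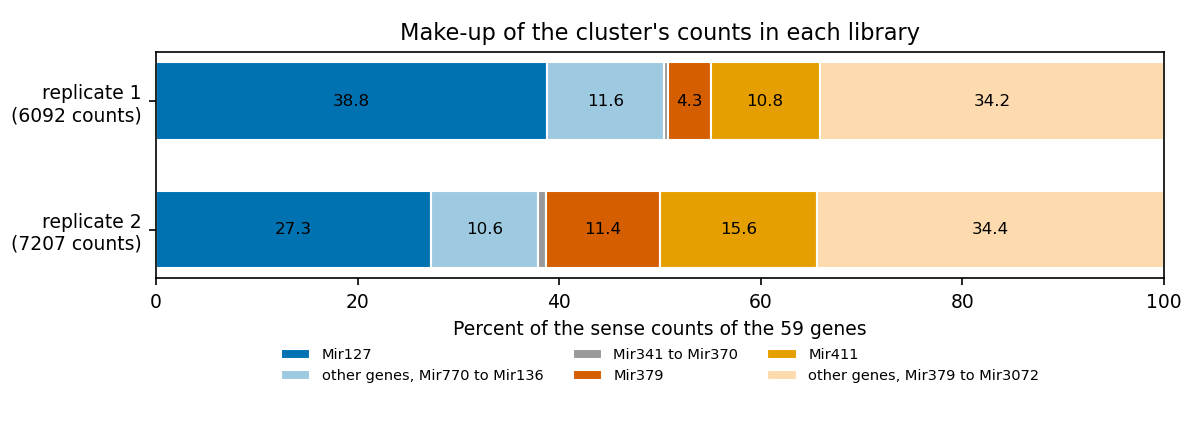
Percent of the cluster's sense counts held by Mir127, Mir379, Mir411 and the other genes of each block, as stacked bars for replicates 1 and 2. Mir127 takes 38.8% in replicate 1 and 27.3% in replicate 2, Mir379 takes 4.27% and 11.4%, and Mir411 takes 10.8% and 15.6%.

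The 12 members at 0 in both libraries were Mir1906-1, Mir3070a, Mir3070b, Mir432, Mir1188, Gm23912, Mir882, Mir1197, Mir758, Mir654, Gm27379 and Mir453. Of these, 4 share at least 20 bases with another annotated hairpin, against 3 of the 28 detected members and 1 of the other 19. Mir1906-1 is identical over its 80 bases to Mir1906-2 on chromosome X, so a read from it has more than 1 possible place. Mir758 shares 21 bases with Mir411, including the end of each 3p arm, but neither whole arm.
Mir411 and Mir758: gguccacuaacccucaguauc

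The detected members and those at 0 differed in predicted folding as well. The median minimum free energy computed with ViennaRNA was -0.436 kcal/mol per base for the 28 detected hairpins, -0.428 for the 19 below the minimum and -0.318 for the 12 at 0. All 28 detected members had a mature entry in RefSeq, and 10 of the 12 at 0 had one. Median GC content was 47.8% for detected members, 43.6% for the 19 below the minimum and 52.8% for those at 0. These values are descriptions without a test.

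Strand mattered at 7 members that have a miRNA gene annotated on the opposite strand. They were Mir337, Mir136, Mir299a, Mir380, Mir376a, Mir539 and Mir409, opposite Mir3544, Mir3071, Mir299b, Gm25750, Gm25252, Gm44322 and Gm24321. They held 464 and 653 sense counts, while the genes opposite had 0 and 2 sense counts. In the deposited column that ignores strand all 7 were at 0, a loss of 7.62% and 9.06% of the cluster's counts. Over all miRNA genes, that column held 3031431 counts in replicate 1, against 3889280 sense counts. For replicate 2 it held 3784294, against 5058613. The fall over all genes was thus proportionally larger than the cluster's. At the other 52 members the counts were the same in both columns, and 0 counts lay on the opposite strand, which includes the strand of Rtl1 at Mir127, Mir433, Mir434 and Mir431. The level of Rtl1 mRNA cannot be read from this, since a read of this assay is a whole mature miRNA.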

How the data were processed

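Heart microRNA-seq libraries of 1 group were analysed, replicates 1 and 2. The deposited values are raw read counts per miRNA gene, not normalized, on mm10 with annotation M21, as the deposited description files state. No aligner, counter or filter is named there: not given in the sources used here. Sense counts were taken from the third column of each deposited table. The 4 summary lines, which name no gene, stayed out of totals. Reads with several alignments, kept in a summary line, numbered 118 and 131 for every 100 sense counts. CPM are sense counts scaled by the sense total. All 2202 identifiers matched GENCODE M21. TMM factors came from edgeR 4.0.16. The exact binomial test and its intervals came from scipy 1.17.1. They were tested on simulated Poisson counts, which hold counting error only, so that trial does not cover other spread between libraries. The common coefficient of variation beyond counting error, from edgeR, was 0.359 for these libraries. DESeq2 1.42.0 gave alternative size factors only. With a single group no quasi-likelihood test could be made. Folding used ViennaRNA 2.7.2. By rule, all detected members, those opposite Rtl1 and the first and last hairpin of each block are named, and sequences are those of the 10 highest members and of members sharing a seed with them. Mir376a, Mir300, Mir495, Mir410, Mir380, Mir539 and the members at 0 other than Mir432, Mir1906-1 and Mir882 fall outside that rule. They were named after their values were seen, Mir376a, Mir380 and Mir539 also as members with a miRNA gene opposite. Members and lists were chosen with earlier results of these data known.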

Additional observations from a re-analysis of the deposited data

How the results depend on the processing

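The cluster's share of counts, 0.150%, was 0.179% in the column that ignores strand, 0.0668% with reads aligned to several places in the denominator, and 0.125% without the 8 members that share at least 20 bases with another hairpin. The 28 detected members became 46 with a minimum of 1 count and 16 with 50, and 29 to 33 with a single library. Without the 8 members, the block of Mir770 to Mir136 became the larger by mean, at 52.5%, with 58.2% in replicate 1 but 46.8% in replicate 2. The 11 calls of 40 tested members, beside 45.4% of all tested genes, numbered 8 to 11 under the other settings. With no low-count filter they were 10 of 47, beside 25.6% of all tested genes. With sums of at least 50 they were 8 of 22, beside 61.3%. In the column that ignores strand they were 9 of 34, beside 44.4%, and with total counts 11 of 40, beside 48.3%. Of the 28 detected members, 28 kept direction and call with DESeq2 size factors, 25 of 25 tested in the column that ignores strand and 22 of 22 with sums of at least 50. With total counts 25 did, Mir337 gained and Mir341 lost its call, and Mir543 changed sign, from 0.069 to -0.023 (log2). No paired analysis was possible because there is a single group. The share of the block of Mir379 to Mir3072 ran from 49.2% (replicate 1, where the proximal block held 50.4% and counting error did not separate them) to 61.4% and that of Mir127 from 27.3% to 38.8% with a single library, and the cluster's share from 0.142% to 0.157%. Depth limits the 12 members at 0 and the 19 below the minimum, for which no order of levels can be read. Hairpin arms were not told apart.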
